A study of Homo sapiens with 14 samples.

Results

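OVCAR-3, an established human ovarian cancer cell line, was grown in 12-well plates in RPMI medium and held for 48 h with GSK-J4 or GSK-J5, each at 2.5 µM in stripped medium. RNA sequencing libraries were made from total RNA. The comparison described here rests on 4 of the 22 libraries of the series: replicates 1 and 2 with GSK-J4 and replicates 1 and 2 with GSK-J5, taken by their column labels and used with raw counts for all genes. The other libraries hold OVCAR-3 at 72 h and the ovarian cancer lines CAOV3 and SKOV3. Both groups compared here received a compound and no library without one was analysed, so each value below is a level with GSK-J4 relative to GSK-J5. Nothing in the labels says that the replicates came from separate cultures, and p-values then measure only the spread between these libraries, which may be technical.

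GSK-J4 enters cells and blocks the histone demethylases KDM6A, also called UTX, and KDM6B, also called JMJD3. Its isomer GSK-J5 serves as the inactive control. KDM6A and KDM6B remove methyl groups from lysine 27 of histone H3, a mark that the Polycomb repressive complex PRC2 writes and that accompanies gene silencing. These enzymes belong to the jumonji family, whose members need iron and 2-oxoglutarate. The question the design addresses is which transcripts differ in this cell line after inhibition of these demethylases.

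The GSK-J5 libraries held 26547119 and 30715253 counts assigned to genes, and the GSK-J4 libraries 30451666 and 28429882. Levels are given as CPM, the count of a gene relative to a fixed library total, after scaling by TMM, a method that assumes that most genes do not change, and CPM compares the same gene between libraries, not different genes, because it does not correct for length. A count of 3, used as the floor of detection, is worth between 0.0918 and 0.112 CPM in these libraries and covers counting error only. The libraries of the 2 compounds also differed in makeup: 16425 and 16576 genes had at least 10 counts with GSK-J5, against 15606 and 15406 with GSK-J4. Mitochondrial ribosomal RNA took 0.0736% and 0.0694% of the counts with GSK-J5 and 0.415% and 0.275% with GSK-J4, and pseudogenes took 1.68% and 1.09% against 2.47% and 1.80%. The part of these differences in the results below was not tested. Replicate counts differed beyond sampling noise in both groups (chi-square per degree of freedom 8.07 with GSK-J5 and 31.5 with GSK-J4), so no pair of replicates looked like copies of 1 library.

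All 16 markers of ovarian cancer epithelium on a list of such genes were detected well enough to be tested, among them PAX8, MUC16, EPCAM and the keratins KRT7, KRT8 and KRT18. The CPM summed over these markers was 12030 and 12130 with GSK-J5 and 8144 and 7768 with GSK-J4. Of 10 fibroblast markers 2 passed the filter on low counts (COL1A1 and COL1A2), of 12 leukocyte markers 4 did and of 10 endothelial markers 3 did. Of 10 mesothelial markers 4 did, of which WT1 and MSLN are also on the epithelial list. Among the defining markers of those cell types, POSTN, CD3E, CD3D, MS4A1, EMCN and CLEC14A had 0 counts in all 4 libraries, and the leukocyte marker PTPRC had between 1 and 4 counts a library. Other members of the same lists were detected. With GSK-J5 the fibroblast marker COL1A1 averaged 39.18 CPM and COL1A2 2.623. The leukocyte markers CD4 and CD8A averaged 2.287 and 1.154 CPM there, and the endothelial marker VWF 2.743. The lists were therefore not absent as a whole.

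Of 16472 genes tested, 5081 (30.8%) were higher and 5166 (31.4%) lower with GSK-J4 at an adjusted p under 0.05 in edgeR's quasi-likelihood test with Benjamini-Hochberg adjustment, called the test of no change below. In a second test, of whether a change exceeded 2-fold (edgeR's glmTreat), 929 genes (5.64%) were higher and 1470 (8.92%) lower. The median difference over all genes was -0.01 on the log2 scale, and every list of genes below is to be read against these shares and this median. The lists were chosen with earlier results of these data known, which can raise their shares of called genes. Scaling by total counts in place of TMM moved the median of all genes to -0.22 and the calls to 3660 higher and 6646 lower, so that 35.5% of the called genes were higher in place of 49.6%. A fit with 10 OVCAR-3 libraries, which adds those of 72 h and of a later library set, called 2262 genes higher and 1845 lower, with 20 and 0 past the 2-fold test (919 and 1394 at an unadjusted p under 0.05). Genes are named below when they are among the 15 highest or 15 lowest past the 2-fold test whose log2 CPM averaged 1 or more, or among the 3 members of a list with the largest change. Other members of the lists given as examples were chosen after their values were seen. Over all genes tested, both GSK-J4 libraries lay above both GSK-J5 libraries in 40.2% and below both in 42.1%. Groups that do not overlap are therefore common here, and follow from the choice for genes named by their change.

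The targets of the compound were themselves transcribed in every library. KDM6B had 86.7 and 101 CPM with GSK-J5 and 156 and 191 with GSK-J4, a log2 difference of 0.89 ± 0.122 (SE, n = 2 libraries a group, edgeR adjusted p 0.000397). KDM6A had 26.0 and 27.4 CPM with GSK-J5 and 30.4 and 36.5 with GSK-J4, a log2 difference of 0.32 ± 0.117 (adjusted p 0.0389). Neither gene's groups overlapped, but the call on the KDM6A log2 fold change was lost under total-count scaling (0.11, adjusted p 0.449), in DESeq2's Wald test (adjusted p 0.059), in the fit with 10 libraries (adjusted p 0.156) and without GSK-J5 replicate 1 (adjusted p 0.195), GSK-J5 replicate 2 (0.113) or GSK-J4 replicate 2 (0.0962). Transcript levels say nothing of the enzymes' activity, and the histone mark was not measured here.

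Among 35 genes of the KDM6 demethylases and the Polycomb complexes, 14 were higher and 10 lower, with a median of 0.03 (-0.19 under total-count scaling). PCGF1, which defines a variant PRC1, rose by 1.66. The PRC1 subunits CBX7 and CBX2 fell by 1.61 and 1.39, CBX7 losing its call in the fit with 10 libraries. EZH2, the catalytic subunit of PRC2, differed by -0.23 and its partner SUZ12 by -0.13, neither past the test of no change. Of 35 other jumonji and 2-oxoglutarate oxygenases, 10 were higher and 12 lower (median -0.08): KDM7A, a demethylase that also acts on lysine 27 of histone H3, rose from 8.43 and 9.18 CPM to 30.5 and 37.3, and PLOD2, a collagen lysyl hydroxylase, fell from 74.8 and 74.9 CPM to 17.9 and 15.6.

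The genes with the largest rises included metallothioneins, targets of the stress factor ATF4 and single genes of other kinds. GDF15, a secreted stress cytokine, had 1.11 and 0.826 CPM with GSK-J5 and 258 and 287 with GSK-J4, a 282-fold rise (log2 8.14 ± 0.152, adjusted p 5.3e-08). MT1M, a metallothionein, had 1 count in the GSK-J5 libraries together and 359 with GSK-J4, a ratio of 404 with a 95% counting interval of 72.1 to 16010. INSC, an adaptor in spindle orientation, had 2 counts against 213 (ratio 120, interval 32.8 to 996). NGFR, the p75 neurotrophin receptor, went from 1.08 and 1.13 CPM to 83.1 and 71.4 (log2 6.12 ± 0.15, adjusted p 1.15e-07), and LAMP3, a lysosomal membrane protein, from 3.43 and 3.55 CPM to 160 and 175. The groups of each of these genes stood far apart, which follows from their choice by the size of the change. MOV10L1, a helicase of the germline piRNA pathway, rose by 6.45, DMGDH, a mitochondrial enzyme of choline breakdown, by 5.58, RNF165 by 4.95, and PAPPA, a protease that cleaves insulin-like growth factor binding proteins, by 4.91. MOV10L1 and PAPPA averaged 0.06527 and 0.1305 CPM with GSK-J5, near or below the floor of detection, so the size of their rises is uncertain. MT1M, INSC, MOV10L1 and PAPPA passed the filter on low counts only through the GSK-J4 libraries, where they are high. ASNSP1, a pseudogene on chromosome 8, rose by 5.90, but it can share reads with its parent ASNS, which also rose, so its value is uncertain.

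The genes with the largest falls were of several kinds. PCK1, the cytosolic phosphoenolpyruvate carboxykinase of gluconeogenesis, had 11.4 and 12.1 CPM with GSK-J5 and 0.467 and 0.112 with GSK-J4, 39.7-fold lower (log2 -5.31 ± 0.326, adjusted p 4.11e-06). Its mitochondrial counterpart PCK2 went the other way, from 32.4 and 34.9 CPM to 111 and 113 (log2 1.73). FAM111B, a protease gene expressed with S phase, fell from 20.1 and 22.2 CPM to 0.539 and 0.970, and RRM2, the regulated subunit of ribonucleotide reductase, from 308 and 325 to 22.0 and 21.7 (log2 -3.85 ± 0.0907, adjusted p 9.32e-08). TTC30A, a part of the transport machinery of cilia, fell from 28.0 and 28.3 CPM to 1.44 and 1.64. TMEM100, a membrane protein linked to bone morphogenetic protein signalling, had 294 and 289 CPM with GSK-J5 and 21.1 and 10.5 with GSK-J4 (log2 -4.20 ± 0.428, adjusted p 0.00549). The call on the TMEM100 log2 fold change was lost without GSK-J5 replicate 1 (adjusted p 0.0533) or replicate 2 (0.057). The other genes of the lowest 15 were C2orf16, PDE11A, PPP1R3G, BLACAT1, CCDC87, H2BC8, C14orf132, SKIDA1, BMP3 and NAP1L3, with log2 differences between -4.45 and -3.82.

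**Figure D1:**
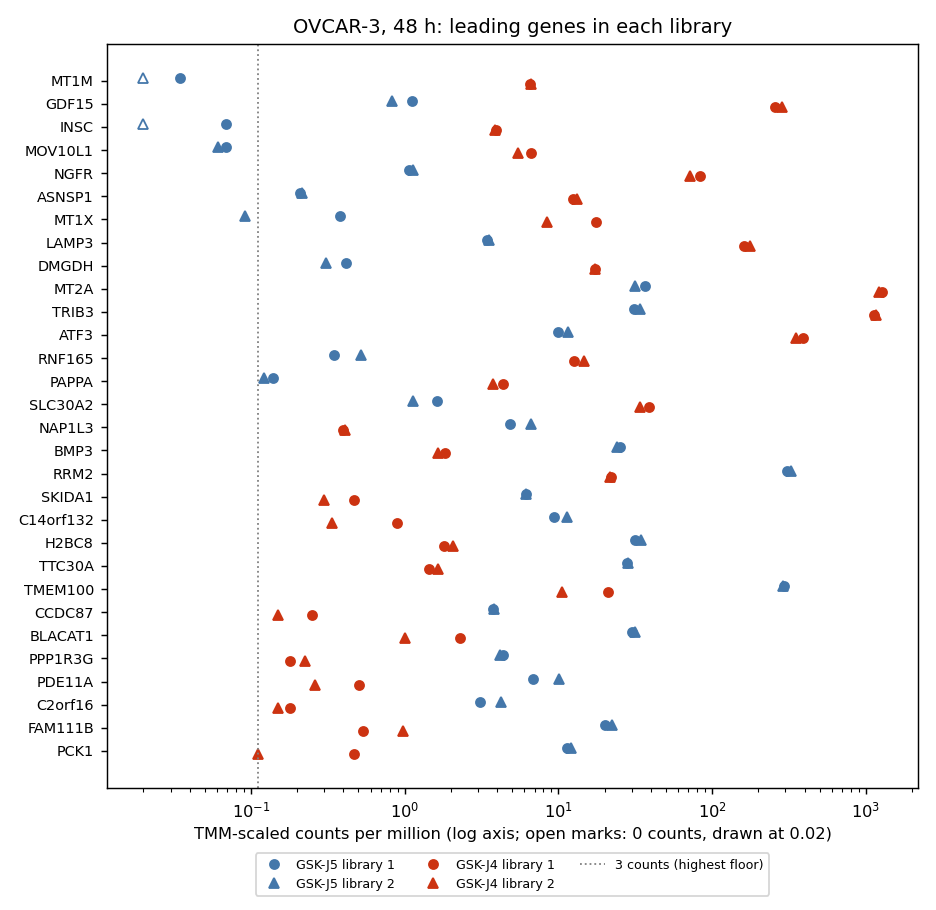
The 15 genes with the largest rise and the 15 with the largest fall among those that passed the 2-fold test, as CPM in each of the 4 libraries on a log axis (open marks stand for 0 counts and are drawn at a fixed low value, the dotted line is the highest 3-count floor). The genes were picked by the distance between compounds, beside which the 2 libraries of each compound lie close together. GDF15 lies at 1.11 and 0.826 CPM against 258 and 287, and several of the genes that rose start near the floor with GSK-J5.

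The integrated stress response is the program in which kinases that sense amino acid shortage, haem shortage or unfolded proteins phosphorylate the initiation factor eIF2, general translation falls, and the transcription factor ATF4 is made and turns on genes of amino acid synthesis and transport. Many promoters of ATF4 targets carry a composite site for ATF4 with a C/EBP partner. The letters TGATGNAAN, searched on both strands in the 250 bases before each RefSeq gene start (GRCh38.p14), were found in 1.46% of 10953 promoters of tested protein coding genes, in 2.62% of those of genes past the 2-fold test upward and in 5 of 29 (17.2%) of a list of ATF4 targets. The following stretches are shown because they hold such a match in 3 genes whose levels are given next. ASNS lies at chr7:97872429-97872518 on the minus strand, ATF3 at chr1:212565177-212565266 on the plus strand and AARS1 at chr16:70289647-70289736 on the minus strand, each read 5′ to 3′ along its gene with the match in capitals.
ASNS: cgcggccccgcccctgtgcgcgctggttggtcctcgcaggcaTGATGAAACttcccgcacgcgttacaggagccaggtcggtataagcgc
ATF3: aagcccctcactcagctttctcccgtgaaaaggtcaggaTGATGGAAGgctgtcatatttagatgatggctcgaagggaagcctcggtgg
AARS1: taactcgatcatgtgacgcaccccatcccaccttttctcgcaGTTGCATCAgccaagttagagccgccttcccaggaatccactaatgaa
A match describes the letters only, and binding was not measured.

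Of 36 targets of ATF4 in amino acid synthesis and transport, 31 were higher and 1 lower, 23 of them past the 2-fold test upward, with a median of 1.85 against -0.01 for all genes. The list was made with earlier results of these data known and holds GDF15, so its share may partly follow from the choice of members. ASNS, which makes asparagine, had 0.381 and 0.734 CPM with GSK-J5 and 7.18 and 6.49 with GSK-J4 (log2 3.58 ± 0.281). It can share reads with its pseudogene ASNSP1, which averaged 0.2111 CPM with GSK-J5 and 12.85 with GSK-J4. The level and change of ASNS are therefore uncertain too. NIBAN1 rose from 17.2 and 18.4 CPM to 248.9 and 285.8, and SLC6A9, a glycine transporter, from 9.36 and 9.09 to 123 and 109. The groups did not overlap for any of these, which were named by their change or after their values were seen. The heavy chain of amino acid exchangers SLC3A2 rose by 3.09 and the light chain SLC7A5 by 1.99, the serine and one-carbon enzymes PHGDH, SHMT2, MTHFD2 and MTHFD1L by 1.25, 1.26, 2.02 and 1.88, and the proline enzyme PYCR1 by 2.22. The cystine transporter SLC7A11 differed by 0.28 and the glutamine transporter SLC38A2 by -0.18, neither past the test of no change, and ALDH18A1, which also serves proline synthesis, fell by 0.27.

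Of 19 transcription factors and sensors of the same program, 13 were higher and 1 lower (median 0.68), 7 of them past the 2-fold test. TRIB3, a pseudokinase that ATF4 and its partner CHOP induce, went from 30.9 and 33.8 CPM to 1123 and 1172 (log2 5.15 ± 0.0976, adjusted p 5.3e-08), and ATF3, a stress transcription factor, from 9.88 and 11.5 to 391 and 353 (log2 5.12 ± 0.118, adjusted p 8.87e-08). DDIT3, which encodes CHOP, went from 4.30 and 3.55 CPM to 112 and 68.7 (log2 4.53 ± 0.332, adjusted p 0.00062). The GSK-J4 replicates of DDIT3 differed more than those of TRIB3, and both lay above both GSK-J5 libraries. PPP1R15A, the stress-induced phosphatase subunit that reverses eIF2 phosphorylation, rose by 3.90. The ATF4 transcript had 243 and 253 CPM against 481.1 and 408.8, a log2 difference of 0.85 that passed the test of no change (adjusted p 0.000101) and not the 2-fold test. The kinase genes EIF2AK3 and EIF2AK1 rose by 0.51 and 0.68, while EIF2AK4 differed by 0.22 and EIF2AK2 by -0.20 without passing.

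The cytosolic aminoacyl-tRNA synthetases, which load amino acids onto tRNA, were higher in 17 of 20 genes and lower in 1 (RARS1), with a median of 1.03. AARS1 went from 94.0 and 98.3 CPM to 457 and 447, SARS1 from 125.3 and 128.2 to 593 and 542, and WARS1 from 102 and 96.9 to 414 and 401. HARS1 and QARS1 differed by 0.01 and 0.06 and did not pass. Of the 16 synthetases of mitochondria 6 were higher, 7 lower and 0 past edgeR's 2-fold test (1 at an unadjusted p under 0.05, 0 in DESeq2 and in limma voom), and the median was -0.09. Under total-count scaling 2 were higher and 8 lower, without GSK-J5 replicate 1 the counts were 2 and 6, without GSK-J5 replicate 2 they were 2 and 4, and edgeR's fit with 10 libraries called 0 in either direction (3 higher and 2 lower at an unadjusted p). The falls of AARS2 (log2 -1.24) and TARS2 (-0.85) lost their calls in the fit with 10 libraries.

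Genes of the unfolded protein response of the endoplasmic reticulum showed smaller and mixed differences, with 12 of 31 higher and 5 lower (median 0.24, and 0.02 under total-count scaling). ERN1, which encodes the sensor IRE1, rose from 11.3 and 12.9 CPM to 123 and 143 (log2 3.46 ± 0.122, adjusted p 5.41e-07). HERPUD1, DNAJB9 and SEL1L, which serve the removal of misfolded proteins, rose by 1.90, 1.63 and 1.48. The chaperone HSPA5 rose by 1.07, while HSP90B1, CALR, PDIA4 and PDIA3 differed by 0.03, -0.10, -0.18 and -0.18 and did not pass. The ER stress element, found in 0.128% of all promoters, was present in 7 of 28 (25%) of these genes, and the 7 had a median of 0.18 against 0.30 for the other 21. Among 16 genes of the mitochondrial stress response 12 were higher and 3 lower (median 0.63), with HSPA9, the mitochondrial HSP70, up by 1.56, the protease LONP1 up by 1.38 and the protease SPG7 down by 1.60.

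Metallothioneins are small cysteine-rich proteins that bind zinc and copper, and the factor MTF1 induces them through metal response elements. The core letters TGCACNC or TGCGCNC, searched on both strands, are short, and 33.4% of the 10953 promoters held at least 1, against 8 of 18 (44.4%) of the list of metallothioneins and zinc transporters. The promoters of MT2A, MT1X and SLC30A2 are shown because they hold several copies each, 7, 4 and 3 in the 250 bases. They lie at chr16:56608334-56608583 on the plus strand, chr16:56682310-56682423 on the plus strand and chr1:26046134-26046288 on the minus strand, with the core matches in capitals.
MT2A: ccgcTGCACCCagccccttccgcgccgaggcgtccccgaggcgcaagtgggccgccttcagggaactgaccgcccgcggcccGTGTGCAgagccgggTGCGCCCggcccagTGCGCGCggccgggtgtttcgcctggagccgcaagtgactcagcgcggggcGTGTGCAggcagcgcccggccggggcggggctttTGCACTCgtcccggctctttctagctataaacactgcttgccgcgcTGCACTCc
MT1X: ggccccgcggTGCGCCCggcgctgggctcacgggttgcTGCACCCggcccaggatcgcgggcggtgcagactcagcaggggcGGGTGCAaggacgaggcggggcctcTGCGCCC
SLC30A2: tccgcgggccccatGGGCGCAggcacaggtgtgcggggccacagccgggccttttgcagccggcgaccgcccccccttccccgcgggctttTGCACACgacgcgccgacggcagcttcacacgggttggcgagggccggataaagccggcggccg
The stretch of SLC30A2 holds 2 of its 3 matches.

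The metallothioneins tested, MT1M, MT1X, MT2A and MT1F, rose by more than 2-fold, alongside the zinc exporters SLC30A1 and SLC30A2. Of the 30 genes of the list 22 passed the filter on low counts. MT1M and MT1X passed it only through the GSK-J4 libraries, where they are high. A copy as low as these with GSK-J5 that did not rise could not be tested, so the shared direction is partly set by the filter. MT2A had 36.4 and 31.5 CPM with GSK-J5 and 1265 and 1214 with GSK-J4 (log2 5.19 ± 0.108, adjusted p 5.77e-08). MT1X had 0.381 and 0.0918 CPM against 17.6 and 8.47 (log2 5.81 ± 0.744, adjusted p 0.00397), and SLC30A2 had 1.63 and 1.13 against 38.8 and 34.0 (log2 4.73 ± 0.179, adjusted p 6.62e-07). MT1X was the most variable of the 3 between replicates, and its groups did not overlap. MT1F rose by 3.76 and SLC30A1 by 2.76. Metallothionein genes are near-identical copies, so the split of reads among them is uncertain. The zinc importer SLC39A8 fell by 1.54. Over the 22 genes of the list 10 were higher and 4 lower, with a median of 0.20 (-0.01 under total-count scaling).

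Of 32 NRF2 targets and redox enzymes, 17 were higher and 5 lower (median 0.46). OSGIN1 rose by 3.12 and GCLC, which starts the making of glutathione, by 2.34, while HMOX1, haem oxygenase, differed by 0.20 and did not pass. AKR1B10, an aldo-keto reductase, had 33 counts in the GSK-J5 libraries together and 0 with GSK-J4, at least 9.77-fold lower against a floor of 3 counts over the group. Of 39 autophagy and lysosome genes 24 were higher and 3 lower (median 0.57), with the transcription factors TFEB and MITF up by 2.47 and 2.20 and the cargo receptor SQSTM1 by 1.34. The 21 heat shock genes divided into 8 higher and 8 lower (median 0.05, and -0.16 under total-count scaling): the inducible HSPA6 rose from 0.243 and 0.0918 CPM to 1.55 and 1.27, and HSPA1A fell from 18.2 and 21.1 to 5.32 and 5.26. HSPA6 passed the filter on low counts only through the GSK-J4 libraries, where it is high. HSPA1A and HSPA1B are near-identical, so each one's share of their reads is uncertain. The 37 proteasome genes had 12 higher and 9 lower, 0 of them past edgeR's 2-fold test, at an unadjusted p or in DESeq2 or limma voom (median 0.19), against 6 higher and 14 lower under total-count scaling (median -0.02).

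**Figure D2:**
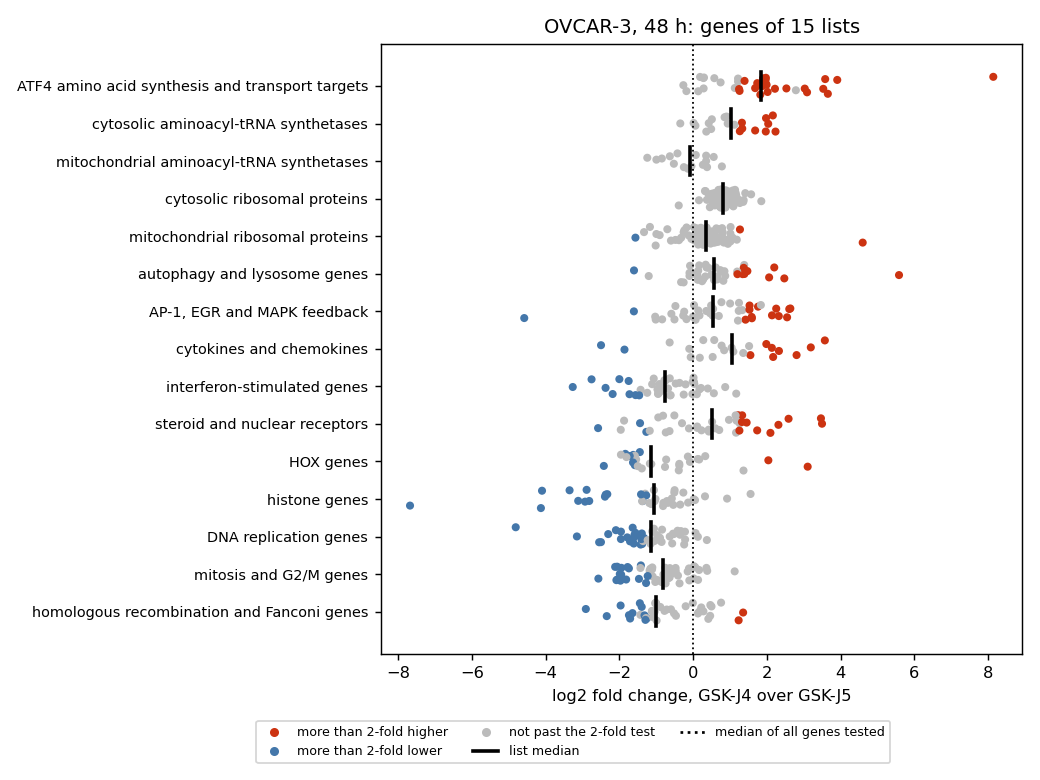
Log2 differences (GSK-J4 over GSK-J5) of the tested members of 15 gene lists, 1 point a gene, with the list medians. Targets of ATF4 have a median of 1.85 and cytosolic ribosomal proteins 0.81, while DNA replication genes (-1.15), histones (-1.06) and mitosis genes (-0.82) lie to the other side of 0.

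E2F factors drive genes of DNA replication, and the later genes of mitosis are commonly controlled through a cell cycle homology region, an element of the DREAM complex. E2F sites, searched as TTTCCCGC, TTTGGCGC or TTTCGCGC on both strands, were found in 3.77% of all promoters and in 13 of 41 (31.7%) of a list of DNA replication genes. The cell cycle homology region, searched as TTTGAA, was found in 8.41% of all promoters, in 13.5% of those of genes past the 2-fold test downward, in 5.86% of those past it upward and in 25 of 47 (53.2%) of a list of mitosis genes. The following stretches are shown because MCM6, PCNA, MKI67 and KIF11 fell while CKS1B, with the same element as MKI67 and KIF11, rose. Their positions are chr2:135876504-135876623 (minus) for MCM6, chr20:5126633-5126722 (minus) for PCNA, chr10:128126424-128126513 (minus) for MKI67, chr10:92593040-92593129 (plus) for KIF11 and chr1:154974581-154974656 (plus) for CKS1B, with E2F matches (MCM6, PCNA) or the cell cycle homology region (the other 3) in capitals. The matches of MCM6 overlap on the 2 strands and are counted as 4.
MCM6: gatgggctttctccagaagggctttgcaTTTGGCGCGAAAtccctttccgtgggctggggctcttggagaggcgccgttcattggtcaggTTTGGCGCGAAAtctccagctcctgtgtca
PCNA: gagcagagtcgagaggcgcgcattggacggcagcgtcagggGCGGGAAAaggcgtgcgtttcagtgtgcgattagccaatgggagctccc
MKI67: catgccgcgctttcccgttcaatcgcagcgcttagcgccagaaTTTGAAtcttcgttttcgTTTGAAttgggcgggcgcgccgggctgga
KIF11: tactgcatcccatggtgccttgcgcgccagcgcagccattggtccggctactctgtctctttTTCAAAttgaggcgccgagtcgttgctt
CKS1B: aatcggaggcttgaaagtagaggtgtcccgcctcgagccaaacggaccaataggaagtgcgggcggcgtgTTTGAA

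DNA replication genes were lower nearly throughout: of 49 tested, 44 were lower and 1 higher (POLD2, by 0.37), with 22 past the 2-fold test downward and a median of -1.15. UHRF1, which keeps DNA methylation in step with replication, had 52.3 and 61.2 CPM with GSK-J5 and 6.43 and 6.34 with GSK-J4 (log2 -3.15). MCM6, a subunit of the replicative helicase, fell from 122 and 125.3 CPM to 31.8 and 26.2, and PCNA, the sliding clamp, from 96.5 and 98.5 to 25.9 and 24.3. None of these genes, named by their change or after their values were seen, had overlapping groups. All 6 subunits of the MCM2 to MCM7 helicase fell, by 1.33 (MCM2), 1.39 (MCM3), 1.79 (MCM4), 1.59 (MCM5), 2.09 (MCM6) and 0.31 (MCM7). FAM111A, FAM111B's neighbour and relative, fell by 2.55. RPA2 and RFC4 differed by 0.13 and 0.07 and did not pass.

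Of 30 enzymes of nucleotide synthesis 18 were lower and 8 higher (median -0.44). The falls included RRM2 and the thymidine kinase TK1 (log2 -1.60), while the purine enzymes ATIC and IMPDH2 rose by 0.79 and 0.75. Among 26 cyclins, E2F factors and CDK inhibitors of G1 and S phase, 13 were lower and 9 higher (median -0.23). CDKN2C, a CDK4 and CDK6 inhibitor, fell from 7.42 and 8.90 CPM to 0.611 and 0.671, cyclin CCNE2 from 6.03 and 6.12 to 0.862 and 0.559, and E2F2 from 24.8 and 26.4 to 3.02 and 3.28. The groups were clearly apart for all 3, which were picked by the size of their change. CDKN1A, which encodes the CDK inhibitor p21, rose by 1.13, and cyclin CCND1 by 0.89.

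Of 54 genes of mitosis and G2, 43 were lower and 3 higher, 16 of them past the 2-fold test downward, with a median of -0.82. MKI67, the proliferation marker, had 210 and 230 CPM against 48.0 and 53.4 (log2 -2.11), ASPM, a spindle pole protein, fell by 2.57 and SPC25, of the kinetochore, had a log2 difference of -2.08. KIF11, a spindle motor, went from 117 and 123 CPM to 42.6 and 47.5 (log2 -1.42). The list was not uniform: the regulators FOXM1, CDC20 and PLK1 differed by -0.15, -0.11 and -0.10 and did not pass, and CKS1B, a CDK-binding subunit, rose from 82.3 and 88.0 CPM to 208 and 164 (log2 1.13, adjusted p 9.47e-05). The mitosis genes with a match to the cell cycle homology region had a median of -1.11 and those without -0.93.

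Of 42 genes of homologous recombination and the Fanconi pathway, which repair broken and cross-linked DNA, 28 were lower and 6 higher (median -0.995). XRCC2, of homologous recombination, fell from 21.5 and 21.7 CPM to 3.27 and 2.46, FANCL, the ubiquitin ligase of the pathway, from 14.98 and 14.56 to 2.98 and 2.83, and the helicase BRIP1 from 26.3 and 27.6 to 6.36 and 7.42. BRCA1 and BRCA2 fell by 1.74 and 1.64, and RBBP8, which starts end resection, rose by 1.23. The 31 other DNA repair genes had 13 lower and 5 higher (median -0.19).

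Histone genes were lower in 23 of 37 and higher in 1 (H2BC5), with a median of -1.06. H2BC8 went from 31.3 and 34.6 CPM to 1.80 and 2.05 (log2 -4.10 ± 0.148, adjusted p 5.71e-07). H1-5 had 54 counts over the GSK-J5 libraries and 0 with GSK-J4, at least 16-fold lower against 3 counts over the group. H4C4 had 24 counts against 1 (ratio 0.0469, 95% counting interval 0.00114 to 0.288) and lost its call in the fit with 10 libraries and without GSK-J4 replicate 2. H2AX and H2BC21 fell by 2.37 and 2.39, and SLBP, which binds the stem-loop of histone mRNA, differed by 0.05 and did not pass. A CCAAT box was found in 34.8% of all promoters, in 28 of 36 (77.8%) of the histone genes, in 41.1% of those past the 2-fold test downward and in 28.2% of those past it upward. Histone genes are near-identical copies, most of their mRNA lacks a poly(A) tail, and the way reads were assigned to them is not given in the sources used here.

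Protein coding genes with a single exon were mostly lower, histones or not. Of 251 such genes, 55.4% were lower and 12.4% higher, with 72 (28.7%) past the 2-fold test downward and 4 (1.59%) upward. With histones left out, 28.4% of 222 were past it downward, against 7.66% of 13312 genes with more exons. The median of the class was -0.81, and it lay between -0.82 and -0.75 in the 4 pairings of a GSK-J4 with a GSK-J5 library. TTC30A and TTC30B, 2 such genes of cilia transport that lie near each other on chromosome 2, had log2 differences of -4.19 and -3.59, and the bone morphogenetic protein antagonist NOG fell from 76.9 and 90.6 CPM to 7.26 and 5.59. TTC30A and TTC30B are close copies, so their reads may be split between them. Long noncoding genes were lower in 43.4% of 1580, with 18.6% past the 2-fold test, and a median of -0.79. Pseudogenes had a median of 0.44, but that value ranged from 0.06 to 0.73 over the library pairs. Protein coding genes on chromosome X were lower in 38.6% of 479 and higher in 25.1%, with a median of -0.26. The coding gene medians of the other nuclear chromosomes lay between -0.11 (chromosome 21) and 0.15 (chromosome 13).

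**Figure D3:**
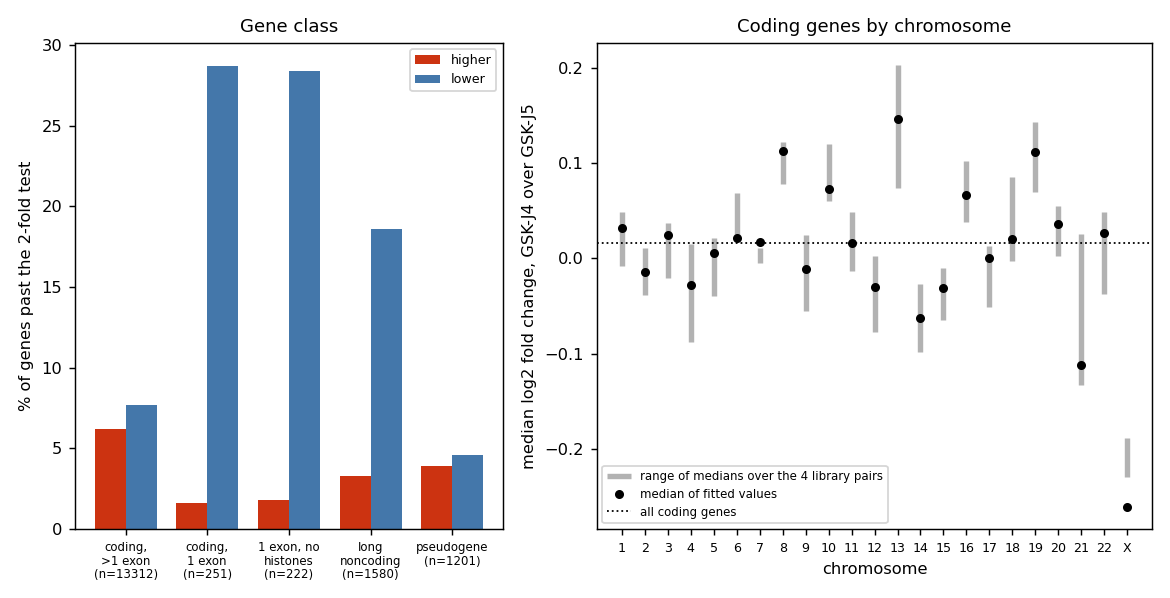
Left, share of genes (percent) past the 2-fold test in each direction by gene class, with 28.7% of the single-exon coding genes lower and 1.59% higher. Right, median log2 difference of protein coding genes by chromosome, with bars for the range over the 4 pairs of libraries, taken from CPM with 0.125 added. The fitted median of chromosome X lies at -0.26, below its range over the pairs of -0.23 to -0.19, and those of the other nuclear chromosomes lie between -0.11 and 0.15.

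Interferon-stimulated genes encode antiviral effectors and are induced through the interferon response element. This element, searched as 2 copies of GAAA with any 2 bases between them on both strands, was found in 2.24% of all promoters and in 17 of 29 (58.6%) of a list of such genes. The promoters of IFIT1 (chr10:89392463-89392545, plus), SAMD9 (chr7:93118070-93118159, minus) and ISG15 (chr1:1013337-1013426, plus) are shown because they hold the element, in capitals, while the first 2 genes fell and ISG15 did not pass the test. The matches of ISG15 overlap and are counted as 2.
IFIT1: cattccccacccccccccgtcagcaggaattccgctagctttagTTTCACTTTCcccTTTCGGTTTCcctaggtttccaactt
SAMD9: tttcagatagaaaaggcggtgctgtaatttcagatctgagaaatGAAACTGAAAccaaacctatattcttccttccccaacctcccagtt
ISG15: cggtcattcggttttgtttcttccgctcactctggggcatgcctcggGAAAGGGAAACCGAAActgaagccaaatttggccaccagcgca

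Of 41 interferon-stimulated genes 22 were lower and 3 higher, with 9 past the 2-fold test downward and a median of -0.75. SAMD9, an antiviral restriction factor, had 11.7 and 12.3 CPM against 1.44 and 1.04 (log2 -3.26), and the oligoadenylate synthetases OAS1 and OAS3 fell by 2.75 and 2.37. IFIT1, which binds foreign RNA ends, went from 2.12 and 2.30 CPM to 0.503 and 0.597 (log2 -2.00). ISG15, a ubiquitin-like modifier, had 27.04 and 25.09 CPM against 33.9 and 24.8 (log2 0.17, adjusted p 0.352), and its groups overlapped. The factor STAT2 fell by 1.11. RSAD2, IFIH1 and ISG20 rose. The genes of the list with a matched element had a median of -0.78 and those without -0.83.

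**Figure D4:**
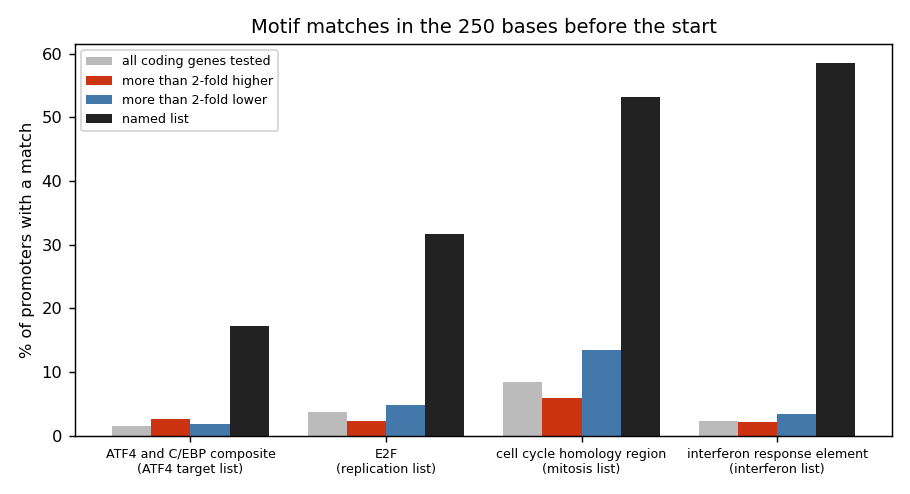
Share of promoters (percent, 250 bases before the RefSeq start) with a match to the ATF4 composite, E2F, cell cycle homology region and interferon response element letters, for all tested coding genes, those past the 2-fold test in each direction and the list each element belongs to. The lists lie far above all genes (17.2% against 1.46% for ATF4 targets). They group genes held to be controlled through these elements, so this excess describes their membership and not the change at 48 h. Among genes past the 2-fold test the shares are 2.62% upward and 1.77% downward for the ATF4 composite, and 5.86% upward and 13.5% downward for the cell cycle homology region, against 8.41% of all.

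The secreted inflammatory signals that could be tested were higher more often than lower. Of 37 cytokines and chemokines 23 passed the filter on low counts. Of these 13 were higher and 3 lower, with 8 past the 2-fold test upward and a median of 1.05. Members such as IL6 passed the filter only through the GSK-J4 libraries, where they are high, so the filter favours rises. With no filter on low counts 33 genes had 13 higher and 2 lower, and the median was 0.30. CXCL3, a neutrophil attractant, had 0.243 and 0.796 CPM against 6.72 and 6.08, IL6 0.139 and 0.214 against 1.37 and 1.98, and IL12A, a subunit of interleukin 12, 4.30 and 4.65 against 32.0 and 30.7. Several of these started near the floor of detection. CCL28, a mucosal chemokine with a higher level, fell from 97.5 and 104 CPM to 17.2 and 18.4. Among 27 NF-kB subunits and inhibitors 13 were higher and 7 lower (median 0.31): RELB rose by 2.38 and NFKBIB by 1.99, while TNFAIP8 fell by 2.56. Of 26 antigen presentation genes 6 were higher and 5 lower, and ULBP1, a stress ligand for natural killer cells, rose from 1.08 and 0.949 CPM to 11.7 and 15.8.

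Of 42 genes of AP-1, the EGR factors and the feedback on MAP kinases, 24 were higher and 7 lower (median 0.54). The phosphatases DUSP4 and DUSP1 rose by 2.64 and 2.61, and MAFF by 2.55. EGR3 had 33 counts with GSK-J5 and 1 with GSK-J4 (ratio 0.0341, 95% counting interval 0.000839 to 0.204), and EGR1 and FOS fell by 1.03 and 0.59. Among 46 growth factor receptors and ligands 14 were higher and 18 lower (median -0.10). EGFR rose from 87.5 and 97.6 CPM to 412 and 506 and its ligand AREG from 1.84 and 2.36 to 17.7 and 17.8, while the related receptors ERBB2, ERBB3 and ERBB4 fell by 1.33, 0.95 and 0.85. Of 24 YAP targets and Hippo genes 14 were higher and 4 lower (median 0.64), with CCN1 up from 91.8 and 87.1 CPM to 672 and 652. Of 19 endothelin and peptide hormone genes 12 were higher and 3 lower (median 0.79), CALCB, a calcitonin gene-related peptide, going from 1.60 and 1.16 CPM to 34.1 and 33.3 and EDN2 rising by 3.60. Of 23 neurotrophin and neuronal receptor genes 8 were higher and 9 lower. There, NGFR and the ligand BDNF rose by 6.12 and 2.49, and the sorting receptor SORCS1 fell by 2.69.

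Genes that respond to p53 and genes of cell death moved in both directions. Of 37 p53 targets 19 were higher and 10 lower (median 0.35). GADD45A, which is also induced by ATF4, rose from 24.5 and 26.0 CPM to 474 and 446, TP53INP1 fell by 2.89, and MDM2, a canonical p53 target, fell by 0.39. The death-promoting BH3 genes PMAIP1, BBC3 and HRK rose by 2.23, 2.16 and 2.11 and BMF fell by 1.70, within a list of 36 with 10 higher and 16 lower (median -0.22). The death receptors TNFRSF10B and TNFRSF10A, which bind TRAIL, rose by 1.74 and 1.50, and the TRAIL gene TNFSF10 fell by 1.86.

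Components of the translation machinery were higher as a group. Of 77 cytosolic ribosomal protein genes 66 were higher and 0 lower by edgeR's test (0 also at an unadjusted p under 0.05 and in DESeq2 and limma voom), 0 were past the 2-fold test (3 at an unadjusted p), and the median was 0.81. In the fit with 10 libraries 1 of 78 was called higher (51 at an unadjusted p under 0.05), with the median again 0.81. For 73 of them both GSK-J4 libraries were above both GSK-J5 libraries, against 40.2% of all genes. The lowest value of the list was RPL36A at -0.39, which did not pass. RPL12 was typical of the upper part, with 725 and 787 CPM against 1859 and 1504. Ribosomal protein genes have many processed copies, so the assignment of their reads is uncertain. Of 35 ribosome biogenesis genes 25 were higher and 6 lower (median 0.72, with 11 and 1 called in the fit with 10 libraries), RRP9, of the small nucleolar particle that guides cleavage of ribosomal RNA, rising from 29.8 and 28.5 CPM to 93.8 and 79.6. MYC, which drives such genes, rose from 21.3 and 22.9 CPM to 111 and 130 (log2 2.45), while MYCN fell by 1.62.

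Of 34 host genes of small nucleolar RNAs and nuclear noncoding RNAs 15 were higher and 11 lower, with 12 past the 2-fold test upward. The median was 0.58, but 0.22 without GSK-J5 replicate 2, 0.31 and 0.27 without GSK-J4 replicate 1 or 2, and 0.16 with no filter on low counts. GAS5 had 89.0 and 89.6 CPM against 516 and 474, SNHG17 had 18.7 and 18.2 against 140 and 139, and PVT1 had 3.74 and 4.04 against 32.0 and 31.9. NORAD, a cytoplasmic RNA that sequesters PUMILIO proteins, fell from 475 and 485 CPM to 91.6 and 76.4, and TUG1 fell by 1.68.

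Among 46 splicing factors 20 were lower and 10 higher, with 9 past the 2-fold test downward and a median of -0.18. SRSF2, an SR protein, fell from 164 and 167 CPM to 26.4 and 23.5, SRSF5 from 93.4 and 92.8 to 16.3 and 14.2, and HNRNPH1 from 279 and 266 to 64.9 and 50.1. SRSF1, SRSF6, SRSF3 and SRSF7 also fell (log2 -2.10, -1.75, -1.50 and -1.44), while the kinases that phosphorylate SR proteins, CLK4, CLK1 and CLK3, rose by 1.73, 1.40 and 1.24. The core spliceosome genes SF3B1 and PRPF8 differed by 0.03 and -0.19 and did not pass.

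Transcripts of the mitochondrial genome diverged from each other. MT-RNR2, the large ribosomal RNA, had 585 and 567 CPM against 4240 and 2708 (log2 2.59) and MT-RNR1, the small one, 92.6 and 85.8 against 299 and 205, while MT-CO3, a subunit of cytochrome oxidase, fell from 912 and 1113 to 304 and 228. Over the 15 genes 4 were higher and 5 lower (median -0.20). The direction turned with 1 library: 3 were higher and 5 lower without GSK-J4 replicate 1 (median -0.68), and 5 higher and 3 lower without GSK-J4 replicate 2 (median 0.19). The GSK-J4 libraries also differed from each other for MT-RNR2, by more than the GSK-J5 libraries did. The nuclear genes of the respiratory chain had 21 of 73 higher and 5 lower, 0 of them past edgeR's 2-fold test, at an unadjusted p or in DESeq2 or limma voom (median 0.20). The share higher, 28.8%, lies near that of all genes. Under total-count scaling 7 were higher and 15 lower (median -0.02), and without GSK-J5 replicate 2 there were 8 higher and 5 lower.

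Genes of carbohydrate and lipid metabolism were lower more often than higher. Of 38 glycolysis and hypoxia genes 20 were lower and 9 higher (median -0.32): SLC16A3, a lactate exporter, fell by 2.39, ALDOC by 2.25 and LDHA by 0.79, while the arrestin relatives TXNIP and ARRDC4, which respond to glucose, rose by 2.10 and 2.35. Of 33 cholesterol genes 16 were lower and 6 higher (median -0.25), with STARD4, ABCA1 and HMGCS1 lower (log2 -2.27, -2.12 and -1.28). STARD4 lost its call in the fit with 10 libraries. Of 40 fatty acid and lipid droplet genes 20 were lower and 13 higher (median -0.18). ELOVL6, an elongase, fell by 2.39, SCD by 1.04 and FASN by 0.98, and PPARG, a nuclear receptor of fat cell differentiation, rose from 0.867 and 0.612 CPM to 9.63 and 6.64.

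Among 37 steroid receptors, other nuclear receptors and clock genes, 20 were higher and 10 lower, with 11 past the 2-fold test upward and a median of 0.52. Of its clock genes, the repressor NR1D1 rose from 4.68 and 5.51 CPM to 56.7 and 58.5, CIART by 2.59, and PER1 and PER2 by 2.31 and 1.33. The orphan receptor NR2F1 fell by 2.58. Of 29 genes of the aryl hydrocarbon receptor and drug metabolism 11 were lower and 4 higher (median -0.33). CYP1A1 fell from 14.04 and 13.71 CPM to 1.55 and 1.45 and CYP1B1 from 23.6 and 24.9 to 3.20 and 3.39, while the receptor gene AHR rose by 1.50 and another of its targets, TIPARP, by 1.33.

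Developmental regulators, many of which carry histone H3 lysine 27 methylation in differentiated cells, were lower more often than higher. Of 28 HOX genes tested 16 were lower and 3 higher, with 7 and 2 past the 2-fold test and a median of -1.15. HOXA4 had 8.11 and 9.73 CPM against 1.55 and 1.79, and HOXA5 and HOXA3, with higher levels, fell by 1.62 and 1.45. The exceptions were HOXB9, which rose from 1.14 and 1.53 CPM to 11.5 and 11.8, HOXC13, which rose by 2.04, and HOXA11, which rose by 1.37. Of 45 other developmental transcription factors 22 were lower and 12 higher (median -0.42). HAND2 had 78 counts against 2 (ratio 0.0289, 95% counting interval 0.00344 to 0.108), and TBX2 rose from 2.36 and 2.66 CPM to 18.7 and 20.0.

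Of 30 ovarian and Müllerian lineage genes 17 were lower and 5 higher (median -0.42). WT1, a transcription factor of serous ovarian cancer, fell from 190 and 212 CPM to 48.9 and 46.1, MECOM by 1.84 and PAX8 by 0.42, while LCN2, a siderophore-binding protein, rose by 2.40. Of the 16 epithelial markers named at the outset 10 were lower and 1 higher. Keratin and cytoskeleton genes had 13 higher and 16 lower of 35 (median -0.30). KRT19 fell from 1231 and 1208 CPM to 424 and 385 and KRT7 rose from 616 and 603 to 1724 and 1541, KRT86 rose by 3.18, and the microtubule-associated MAP1B went from 3.22 and 4.28 CPM to 52.5 and 63.9. TUBA1B fell from 141 and 123 CPM to 20.8 and 15.4 and TUBA1A by 2.77, with the reservation that tubulin genes are near-identical copies. Of 49 epithelial junction genes 17 were higher and 17 lower (median -0.06), and of 27 mesenchymal genes 4 were higher and 10 lower (median -0.55), TCF4 falling by 2.31.

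Of 59 Wnt and Notch genes 25 were lower and 18 higher (median -0.09). LGR5, a receptor that strengthens Wnt signals, fell from 21.3 and 25.5 CPM to 2.52 and 2.61, and DKK1, a secreted Wnt inhibitor, rose from 0.139 and 0.245 to 2.19 and 2.31. DKK1 passed the filter on low counts only through the GSK-J4 libraries, where it is high. The Notch ligands JAG1 and DLL4 rose by 1.92 and 2.27, and the receptors NOTCH2 and NOTCH3 fell by 0.59 and 1.26. Of 36 TGF-beta and BMP genes 15 were lower and 10 higher (median -0.14), the inhibitor SMAD7 rising by 1.85. Of 51 Hedgehog and cilia genes 22 were lower and 13 higher (median -0.18), and GLI1, the pathway's target and effector, rose from 0.312 and 0.551 CPM to 3.48 and 3.06 while the signal transducer SMO fell by 1.55. Of 50 laminins, collagens and integrins 20 were lower and 10 higher (median -0.30), with AGRN and ITGB5 lower (log2 -1.49 and -1.35) and THBS1 and FBN1 higher (1.94 and 2.47).

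The same compounds were compared at 72 h in 4 libraries of the first set, 2 for each compound, and the difference between the 2 times was tested as an interaction over the 8 libraries. Of 17090 genes tested, the effect of GSK-J4 was higher at 72 h than at 48 h in 2020 (11.8%) and lower in 2551 (14.9%). The interaction uses the 48 h libraries of the comparison above. Heat shock genes had a median of 0.05 at 48 h and 0.89 at 72 h, with 17 of 21 higher at 72 h by the interaction test. HSPA6, a strictly inducible HSP70, had 1.46 and 1.20 CPM with GSK-J4 at 48 h and 30.1 and 28.4 at 72 h, against between 0.0868 and 0.290 in the 4 GSK-J5 libraries (difference 3.81 ± 0.728, adjusted p 0.00355). HSPA1A had a log2 difference of -1.89 between compounds at 48 h and of 0.68 at 72 h, a change of 2.57 ± 0.187 (adjusted p 0.00024).

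Cytosolic ribosomal proteins went from a median of 0.80 at 48 h to 1.84 at 72 h in the fit over 8 libraries, with 60 of 78 higher by the interaction test, NRF2 targets from 0.46 to 1.30 (20 of 32 higher, 1 lower) and proteasome genes from 0.19 to 0.68 (25 of 37 higher, 1 lower). ATF4 targets were already at a median of 1.85 at 48 h and had 1.48 at 72 h, with 6 of 36 higher and 16 lower. Wnt and Notch genes went from -0.09 to -0.75 (27 of 59 lower, 1 higher) and laminins, collagens and integrins from -0.30 to -0.97 (18 of 50 lower, 0 higher by edgeR's test, 1 at an unadjusted p). DNA replication genes had medians of -1.15 and -1.41 (5 of 49 higher, 8 lower) and interferon-stimulated genes -0.75 and -0.71 (3 of 41 higher, 4 lower). Among single genes, CRB2, an apical polarity protein, had 1.60 and 1.48 CPM with GSK-J4 at 48 h and 0.157 and 0.153 at 72 h, against 10.7 to 16.4 in the GSK-J5 libraries. GAS1, a Hedgehog co-receptor with a higher level, had 184 and 179 CPM with GSK-J4 at 48 h and 48.8 and 32.1 at 72 h, against 442 to 623. These calls depend on the libraries used, since the fit with the 2 later libraries added called 1 difference higher and 0 lower (506 and 841 at an unadjusted p under 0.05). The later libraries are of 72 h and enter the estimated effect at that time as well as the spread. The cause of the loss was not tested.

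**Figure D5:**
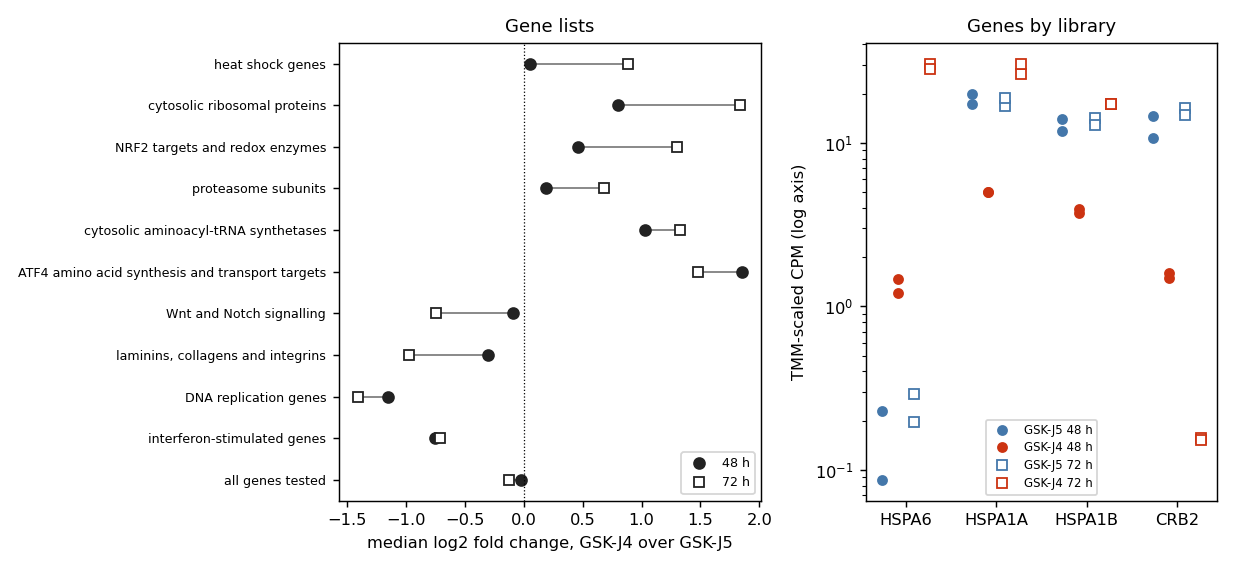
Left, medians of the log2 difference (GSK-J4 over GSK-J5) of the gene lists at 48 h and at 72 h. Right, CPM of HSPA6, HSPA1A, HSPA1B and CRB2 in each of the 8 libraries by compound and time, where HSPA6 with GSK-J4 lies at 1.46 and 1.20 at 48 h and 30.1 and 28.4 at 72 h.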

How the data were processed

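The authors deposited raw counts per Ensembl gene, 1 column a library, for OVCAR-3. STAR, DESeq2 and GRCh38 (hg38) are named in the submitters' processing notes, with no version. Which program counted the reads, with which strand setting and which annotation, is not given in the sources used here. Of 58825 gene identifiers 58472 were named from a gene name table and 345 from GENCODE release 29. Genes that pass edgeR's filterByExpr (minimum count 10) were fitted with TMM scaling and the robust quasi-likelihood test (edgeR 4.0.16, R 4.3.3, prior count 0.125), with glmTreat for changes above 2-fold and Benjamini-Hochberg adjustment over all genes tested. The fits were tried on simulated counts in which few genes changed, up and down alike, with the same dispersion for every gene. Most genes were called in the data, so the simulation does not test the fits under such conditions. Standard errors are the log2 difference divided by the square root of F. Per-library CPM use the same scaling. Alternatives used DESeq2 1.42.0 and limma 3.58.1. Promoters are RefSeq sequences, matched by symbol for 10953 of 13563 coding genes. The 63 gene lists and their members were chosen with earlier results of these data known, and members of near-identical families may share reads. Genes named are KDM6A, KDM6B, the 15 highest and 15 lowest log2 differences past the 2-fold test at a mean log2 CPM of at least 1 (clone, LINC and antisense names left out), the 3 largest called changes of each list described and, between times, the 6 highest and 6 lowest differences among genes also called at 48 h. Other list members in the text were named after their values were seen, as were the divisions by exon number, gene class and chromosome. Some genes that this rule selects are not reported here.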

Additional observations from a re-analysis of the deposited data

Results flagged for a closer look

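The effect of GSK-J4 differed between 72 h and 48 h, by the interaction test over 8 libraries (edgeR, adjusted over 17090 genes), in 12 genes named as the 6 largest differences in each direction. Higher at 72 h were HSPA6 (log2 difference of the effects 3.81, adjusted p 0.00355), HSPA1A (2.57, 0.00024), HSPA1B (2.12, 0.000298), KRT86 (1.96, 0.0274), CXCL8 (1.95, 0.00312) and the pseudogene CCT6P3 (1.92, 0.0109). HSPA1A and HSPA1B were lower with GSK-J4 at 48 h, by -1.89 and -1.76, and stood at 0.68 and 0.37 at 72 h. Lower at 72 h were CRB2 (-3.58, 0.000957), KIF26B (-2.51, 0.00237), GAS1 (-2.50, 0.000441), S1PR5 (-2.48, 0.0114), ZFHX2 (-2.44, 0.00191) and COL11A1 (-2.34, 0.0337). KIF26B, a kinesin family member, was higher with GSK-J4 at 48 h (0.87) and stood at -1.64 at 72 h. CRB2, GAS1, S1PR5, ZFHX2 and COL11A1 were lower at 48 h, where the choice required a call, and their effect had the same sign at 72 h. In the fit with 10 libraries HSPA1A alone of the 12 kept its call (HSPA1A difference 72 h minus 48 h 2.56, adjusted p 0.0376), and the S1PR5 difference 72 h minus 48 h reversed to 0.245 (adjusted p 0.982). Time and library cannot be told apart beyond the spread of 2 libraries a group.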

How the results depend on the processing

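DESeq2's Wald test called 605 genes more than 2-fold higher and 732 lower, and limma voom 690 and 1035, against 929 and 1470. The fit with 10 OVCAR-3 libraries called 2262 higher and 1845 lower at 48 h, 20 and 0 past 2-fold, with 1 higher and 0 lower difference between times, and the S1PR5 difference 72 h minus 48 h reversed to 0.245 (adjusted p 0.982) and the cause was not tested. Leaving out each library gave 3978 to 5296 higher, 3935 to 4917 lower, 684 to 1014 more than 2-fold higher, and 1029 to 1219 more than 2-fold lower. It gave 1169 to 1751 genes with a higher effect at 72 h than at 48 h, and 1626 to 2334 genes with a lower effect at 72 h than at 48 h. The lowest of these counts, 1169 and 1626, came without GSK-J5 replicate 1, and without GSK-J5 replicate 2 there were 1276 higher. With the replicate block the calls were 5493 higher and 5391 lower, 1075 and 1544 past 2-fold. The replicates share only a number (the replicate differences of the 2 groups correlate at r 0.188 across genes, which are not independent replicates), and the block changed no call of the 202 named genes. Of these genes 31 lost their call in the fit with 10 libraries and at most 10 under any other setting, and 0 reversed. List medians changed sign in 10 of 63 lists under total-count scaling and in at most 5 under the other settings. Without GSK-J4 replicate 1 the medians of the other jumonji and oxygenase genes, growth factor receptors and ligands, TGF-beta and BMP, Wnt and Notch, and epithelial junction genes became 0.035, 0.054, 0.034, 0.027 and 0.024, and without GSK-J5 replicate 1 those of the KDM6 and Polycomb list and the MYC network became -0.014 and -0.007. Depth limits genes near the floor of 3 counts, such as MT1M, H4C4 and EGR3.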

Other observations

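Of 19 iron and haem genes 6 were higher and 4 lower (median 0.17, and -0.04 under total-count scaling), with STEAP3, an iron reductase, at a log2 difference of 2.45, the transferrin receptor TFRC at 1.06 and the iron exporter SLC40A1 at -1.43. Of 27 genes of the TCA cycle and linked enzymes 12 were higher and 4 lower (median 0.13), against 5 and 9 under total-count scaling (median -0.08). Of 74 mitochondrial ribosomal proteins 40 were higher and 10 lower (median 0.36, with 8 and 4 called in the fit with 10 libraries). MRPS24, which had 1 count with GSK-J5 and 27 with GSK-J4, is too thinly covered to be read. Of 33 kallikreins, serpins and secreted proteases 9 were higher and 11 lower, with the serpin SERPINE2 rising by 2.87 and SERPINB5 at -2.94. Of 21 S100 and annexin genes 8 were higher and 3 lower, ANXA3 at 1.92 among them.

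By base composition, coding genes were divided into 5 equal bins of GC content. From the lowest bin to the highest, 3.58, 5.38, 7.11, 6.71 and 7.63% were more than 2-fold higher, against 6.08% of all coding genes. The shares more than 2-fold lower were 9.47, 7.67, 7.26, 8.59 and 7.26%, against 8.05%. The replicates with GSK-J4 differed more from each other than those with GSK-J5, with an SD of the log2 replicate difference across genes of 0.308 against 0.266.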
